A study of Caenorhabditis elegans with 18 samples.

Results

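The 9 Caenorhabditis elegans genes described here were higher with propionate in wild type animals and in nhr-68 mutants, and differed by at most 0.35 on the log2(FPKM + 1) scale in nhr-10 mutants. That scale understates changes of low genes, and ZK6.6 stood 2.8-fold higher with propionate in nhr-10 mutants as a ratio of FPKM. They are acdh-2, dhs-25, ugt-53, folt-2, hrg-10, vwa-8, C09B8.4, C23H5.8 and ZK6.6. They were picked by name for that pattern, so their propionate responses chose them and are given below as a description, with no test. The 9 genes were matched by WormBase identifier to 9 of the 20953 genes measured, and all 9 were among the 15575 genes that reached 1 FPKM in 2 or more libraries and were tested. FPKM counts sequenced fragments relative to transcript length and library size.

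Transcripts were sequenced from whole animals at the L4 larval stage, in 18 libraries that form 9 groups of 2. Each library holds about 3000 animals that were grown without added vitamin B12 and synchronized by repeated L1 arrest. The 3 genotypes were the wild type strain N2, a deletion of nhr-10 (allele tm4695, strain not named) and a deletion of nhr-68 (allele gk708, strain VC1527), each mutant represented by 1 allele. Each genotype was kept on plates without supplement (called untreated, fed the bacterium OP50 according to the sample titles), with vitamin B12 at 20 nM, or with the same B12 dose plus propionate at 40 mM, the exposure lasting 48 hours. Whether replicates came from separate cultures is not stated in the labels, so p-values measure the spread between these libraries, which may be technical.

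The short-chain fatty acid propionate is made in the breakdown of several amino acids and of fatty acids with an odd carbon number. With vitamin B12 it is degraded by the canonical carboxylase and mutase route. Without B12, or when propionate persists, C. elegans switches on the propionate shunt, a beta-oxidation-like route that begins with the acyl-CoA dehydrogenase ACDH-1. NHR-10 and NHR-68 are nuclear hormone receptors, transcription factors of a family that binds small lipophilic ligands, and both are known as activators of the shunt genes. The question addressed is which of the propionate-responsive genes depend on one receptor and not on the other.

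Library sizes estimated from the step of low FPKM values lay roughly between 12660000 and 14320000 fragments, and between 13753 and 14732 genes reached 1 FPKM. Pearson's r across genes between the 2 libraries of a group was between 0.9695 and 0.9859. In untreated animals nhr-68 stood at 108.25 and 88.46 FPKM in wild type, 79.06 and 140.23 in nhr-10 mutants and 14.95 and 11.6 in nhr-68 mutants. nhr-10 stood at 17.23 and 15.08 FPKM in wild type, 18.86 and 21.82 in nhr-68 mutants and 6.14 and 9.9 in nhr-10 mutants. Reads thus still fell on the gene in its deletion strain (log2 -0.96 against wild type, limma adjusted p = 0.166). On B12 alone nhr-68 read 5.18 and 13.06 FPKM in nhr-10 mutants against 48.69 and 50.37 in wild type. With propionate nhr-68 read 10.75 and 18.19 FPKM in nhr-10 mutants against 53.54 and 55.94. The part of these lower nhr-68 levels in the results was not tested. Of the 12 intestine markers 11 were found, of which mtl-1 ran from 0.44 to 4.99 FPKM and the others stayed at 12.45 FPKM or more in every library. The 6 body wall muscle and 7 neuron markers were above 2 FPKM in every library. In untreated animals the summed intestine markers lay between 4469.8 and 5821.7 FPKM in wild type, 3737.6 and 4193.9 in nhr-10 mutants and 5547.6 and 6132.4 in nhr-68 mutants. None of the 11 passed the limma test (Benjamini-Hochberg) in the 3 untreated comparisons, and at an unadjusted p under 0.05 there were 1, 3 and 3 (nhr-10 against wild type, nhr-68 against wild type, nhr-10 against nhr-68). The part of the lower sum in nhr-10 mutants in the results was not tested. In whole animals, fewer cells of a type and less RNA per cell cannot be told apart.

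The untreated libraries were not part of the rule that picked the genes, and they give the tests of this account. The spread in these tests was estimated from all 9 groups, so the libraries that picked the genes entered it. The genes were also chosen with earlier results of these data known. In untreated nhr-10 mutants each of the 9 genes was below wild type in both libraries, and 6 passed the test: acdh-2, C09B8.4, folt-2, C23H5.8, dhs-25 and ugt-53. Among all 15575 genes 0.295% were called lower in this comparison (limma on log2(FPKM + 1), Benjamini-Hochberg adjusted p under 0.05), and 16.1% had both nhr-10 libraries below both wild type libraries. The median log2 difference of the 9 genes was -1.53, with a range from -4.28 to -0.32, beside a median of 0.108 over all genes. folt-2 stood at 6.1% of its wild type mean, C23H5.8 at 16.7%, ugt-53 at 32.9% and dhs-25 at 34%. vwa-8, hrg-10 and ZK6.6 did not pass, with means at 61%, 77.3% and 66.9% of wild type. After median-ratio scaling the all-gene median was -0.003 in place of 0.108, vwa-8 passed as well (adjusted p = 0.0205), and all 9 genes kept their direction. As deposited 46 genes were called lower and 171 higher, and after scaling 88 and 130. The 46 lower calls became 24 without wild type replicate 1, 18 without wild type replicate 2, 20 without nhr-10 replicate 1 and 23 without nhr-10 replicate 2, and 5 of the 9 genes were called in each of these 4 fits, ugt-53 being the one that was lost. Beside these differences, none of the 10 moulting genes and 12 sperm markers was called by limma in untreated nhr-10 mutants. At an unadjusted p under 0.05, 5 moulting genes were higher and 7 sperm markers lower, with median log2 differences of 0.99 and -0.4 over their lists. Moulting sums were 979.1 to 979.2 FPKM against 538.9 to 1162.4 in wild type, and sperm sums 1810.8 to 2268.5 against 2432.3 to 2583.2. Their part in the results was not tested.

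In untreated nhr-68 mutants the same genes split. acdh-2, C09B8.4, dhs-25 and ugt-53 were higher than in wild type, folt-2 and C23H5.8 were lower, and vwa-8, hrg-10 and ZK6.6 did not pass. Among all genes 2.44% were called higher and 3.58% lower in this comparison (limma, Benjamini-Hochberg), and the median over all genes was -0.017, beside 0.29 for the 9 genes. The libraries did not overlap for 8 of the 9, hrg-10 being the exception, where 24.3% of all genes lay higher and 28.5% lower without overlap. The comparison shares its wild type libraries with the one before. C09B8.4 was 19.4-fold higher, acdh-2 8.08-fold, ugt-53 3.38-fold and dhs-25 2.22-fold. folt-2 was 2.27-fold lower and C23H5.8 3.1-fold lower. Without nhr-68 replicate 2, 14 genes in place of 558 were called lower and 19 in place of 380 higher, and of the 9 genes C09B8.4 and C23H5.8 stayed called, while acdh-2, dhs-25, ugt-53 and folt-2 had limma adjusted p-values of 0.0611, 0.076, 0.0885 and 0.112. Without nhr-68 replicate 1 there were 305 lower and 229 higher calls. Without wild type replicate 1 there were 51 and 52, and ugt-53 missed the threshold (adjusted p = 0.0592 in limma). Without wild type replicate 2 there were 74 and 123, and folt-2 missed it (adjusted p = 0.0614). Beside this, 4 of the 12 sperm markers were called lower in untreated nhr-68 mutants, with sums of 1801.9 to 1898.7 FPKM against 2432.3 to 2583.2 in wild type. The 6 vitellogenins had no call in limma, and none at an unadjusted p under 0.05, with sums of 2880.2 to 6451.4 FPKM against 848.9 to 2627.4. The part of these differences in the results was not tested.

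**Figure D1:**
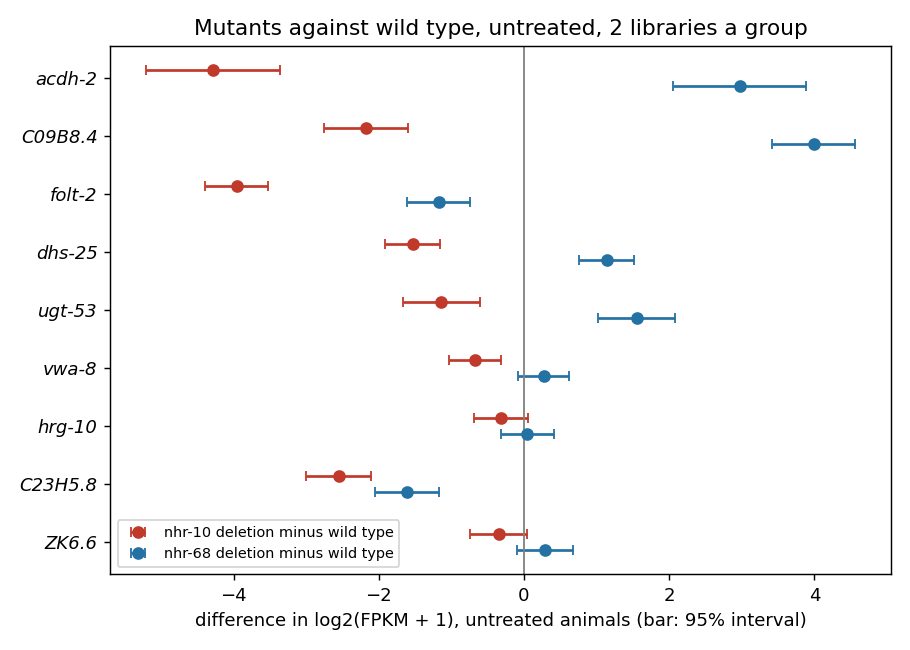
Difference in log2(FPKM + 1) between each mutant and wild type in untreated animals for the 9 genes, with limma's 95% interval, 2 libraries a group. Every nhr-10 point lies left of 0, from -4.28 for acdh-2 to -0.32 for hrg-10, while the nhr-68 points run from -1.61 for C23H5.8 to 3.99 for C09B8.4.

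The mutants were also set against each other without supplement. All 9 genes were lower in the nhr-10 than in the nhr-68 libraries, where 13.4% of all genes had both libraries lower. acdh-2, C09B8.4, folt-2, dhs-25, ugt-53 and vwa-8 passed the test, beside 0.225% of all genes called lower and 0.334% higher (limma, Benjamini-Hochberg). The median of the 9 log2 differences was -2.67, and that of all genes 0.164 as deposited and 0.008 after median-ratio scaling. C23H5.8 missed the threshold as deposited (adjusted p = 0.0668) and passed after scaling (0.0159, limma). All genes together gave 35 lower and 52 higher calls as deposited and 64 and 27 after scaling. The 35 became 18 without nhr-10 replicate 2, 21 without nhr-68 replicate 1 and 17 without nhr-68 replicate 2. The 52 became 29 without nhr-10 replicate 1, 10 without nhr-10 replicate 2, 22 without nhr-68 replicate 1 and 10 without nhr-68 replicate 2. vwa-8 was no longer called after removal of any 1 of the 4 libraries (limma adjusted p between 0.0965 and 0.147), and the other 5 genes stayed called.

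**Figure D2:**
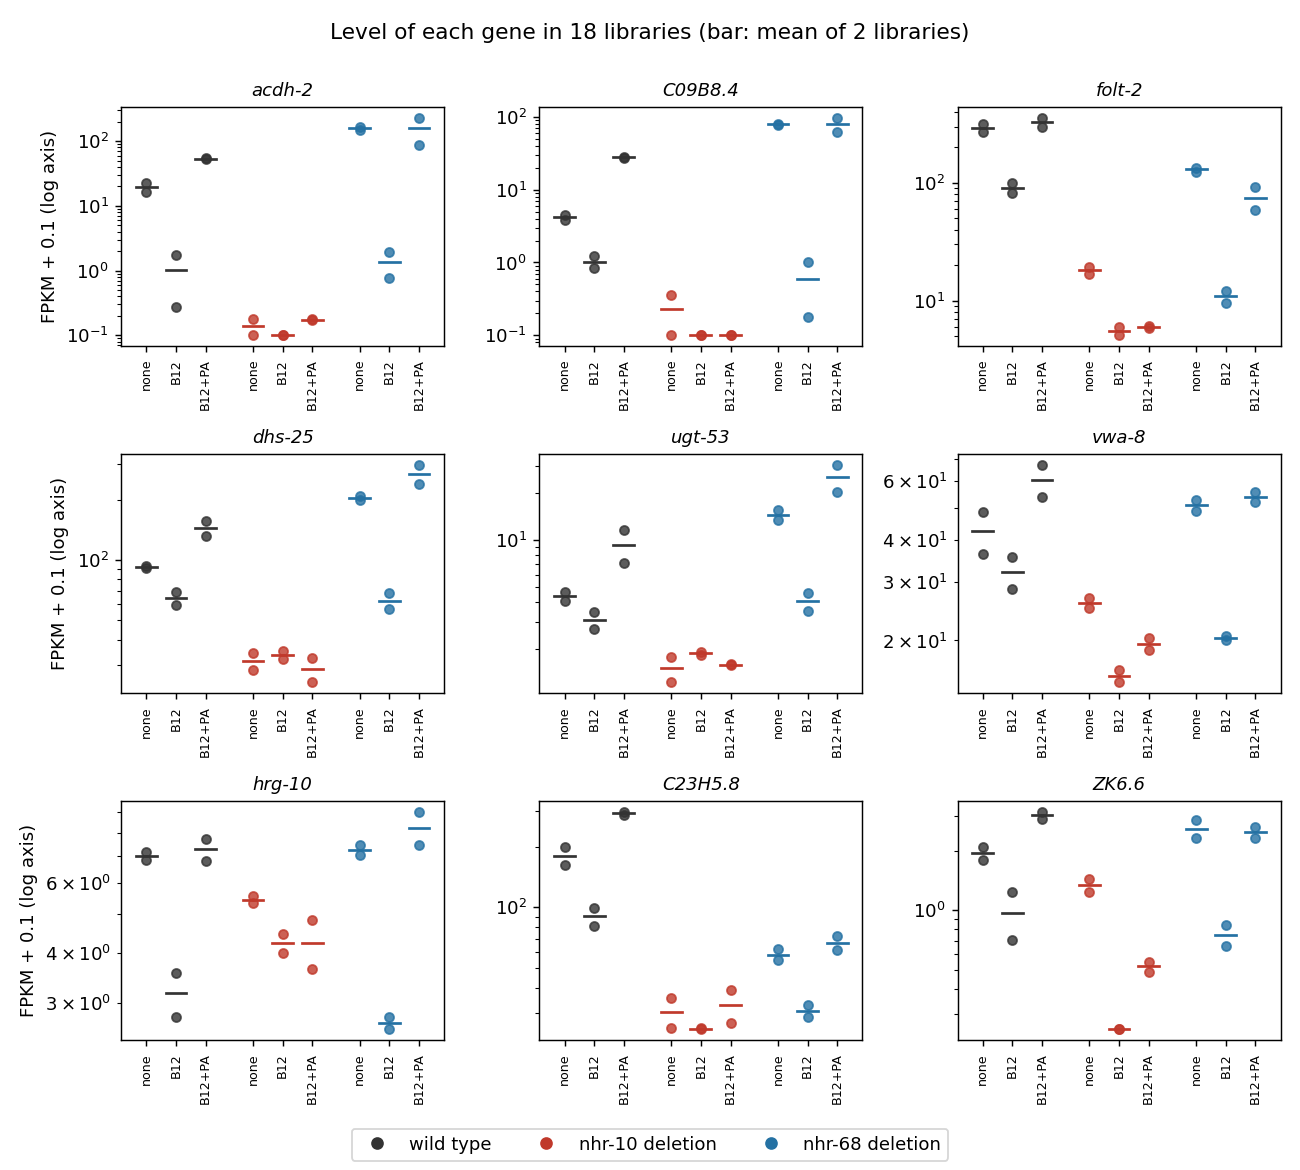
FPKM + 0.1 on a log axis for each of the 9 genes in all 18 libraries; points are libraries, bars the mean of 2, and colours the genotypes, each untreated (none), on B12 and on B12 with propionate (B12+PA). Wild type and nhr-68 points dip on B12 and stand higher with propionate, while nhr-10 points of acdh-2 and C09B8.4 lie between 0 and 0.26 FPKM throughout.

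acdh-2 (WBGene00015894, chromosome II, 5544778 to 5547492 of WBcel235, minus strand) encodes an acyl-CoA dehydrogenase, a paralogue of the shunt enzyme ACDH-1. Wild type libraries read 16.18 and 22.87 FPKM untreated, 1.64 and 0.17 on B12 alone, and 52.28 and 54.63 with propionate. In nhr-68 mutants the values were 149.53 and 165.95 untreated, 0.66 and 1.81 on B12 alone, and 86.03 and 229.25 with propionate. In nhr-10 mutants the 6 libraries read 0.08 and 0 untreated, 0 and 0 on B12 alone, and 0.07 and 0.08 with propionate. A single fragment is worth about 0.0543 FPKM for this gene, so the nhr-10 values rest on 0 to about 2 fragments and no fold change is given against them. The untreated log2 difference was -4.28 ± 0.426 (SE) in nhr-10 mutants (limma, Benjamini-Hochberg adjusted p = 0.000342) and 2.97 ± 0.426 in nhr-68 mutants (adjusted p = 0.00413). The highest group means were those of the nhr-68 mutants, untreated (157.7 ± 11.6, SD, n = 2) and with propionate (157.6 ± 101), which overlapped.

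Reads of acdh-2 could be shared with its paralogue acdh-1 and with ins-13, an insulin-like gene that overlaps it on the same strand. The libraries separate acdh-2 from acdh-1 in both directions. In untreated nhr-10 mutants acdh-1 stood at 333.51 and 590.58 FPKM and acdh-2 at 0.08 and 0. In nhr-68 mutants on B12 with propionate acdh-1 stood at 1.68 and 2.75 and acdh-2 at 86.03 and 229.25. Each gene was thus low in libraries where the other was abundant. acdh-1, the entry enzyme of the shunt, was lower in untreated nhr-10 mutants (log2 -2.36 ± 0.315, limma adjusted p = 0.00222), as acdh-2 was. In untreated nhr-68 mutants acdh-1 read 237.43 and 187.44 FPKM against 2548.59 and 2058.19 in wild type (limma adjusted p = 0.000174), while acdh-2 was higher there than in wild type. ins-13 was highest in nhr-68 mutants, at 2.23 and 1.14 FPKM untreated and 0.37 and 1.9 with propionate, and its reads cannot be told apart from those of acdh-2 in the shared stretch.

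**Figure D3:**
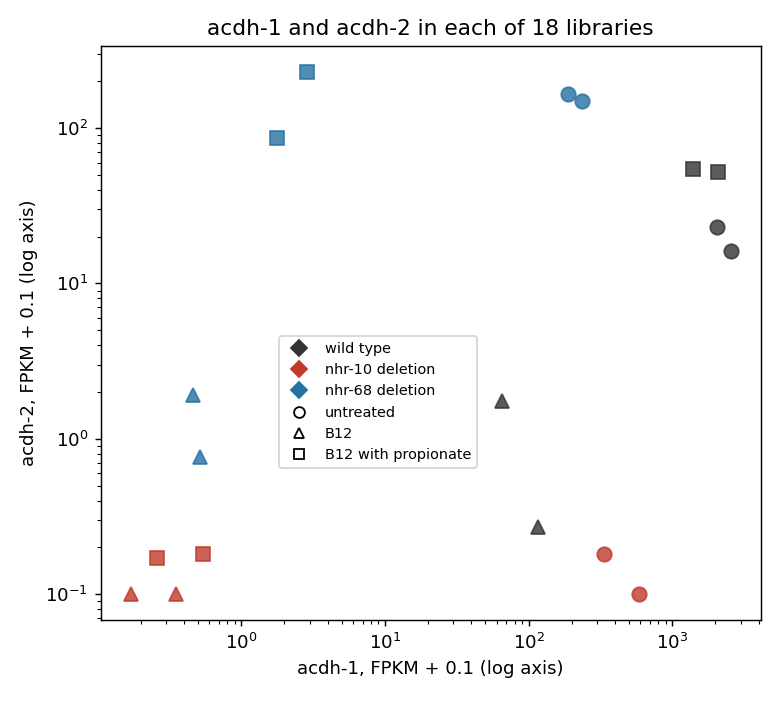
acdh-1 (x axis) against acdh-2 (y axis), both as FPKM + 0.1 on log axes, in each of the 18 libraries; colours are genotypes and shapes treatments. The nhr-68 libraries with propionate lie at the upper left, with acdh-1 at 1.68 and 2.75 FPKM, and the untreated nhr-10 libraries at the lower right, with acdh-2 at 0.08 and 0.

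dhs-25 (WBGene00000988, X, 1486532 to 1489326, plus strand) encodes a short-chain dehydrogenase, a family that oxidises or reduces alcohol and keto groups. Wild type libraries read 90.45 and 93.09 FPKM untreated, 69.36 and 59.12 on B12 alone, and 130.77 and 156.16 with propionate. nhr-68 libraries read 197.99 and 209.22 untreated, 56.49 and 67.96 on B12 alone, and 237.52 and 297.14 with propionate. In nhr-10 mutants all 6 libraries lay between 24.38 and 34.86 FPKM, below every library of the other genotypes. Its untreated log2 difference from wild type was -1.53 ± 0.174 (SE) in nhr-10 mutants and 1.14 ± 0.174 in nhr-68 mutants (limma adjusted p = 0.000875 and 0.00488). On B12 alone wild type and nhr-68 mutants overlapped, at 64.24 ± 7.24 and 62.22 ± 8.11 FPKM (SD, n = 2).

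ugt-53 (WBGene00020182, V, 2849343 to 2852028, plus strand) encodes a UDP-glucuronosyltransferase, an enzyme class that attaches a sugar to small molecules before they are excreted. Wild type libraries gave 3.96 and 4.56 FPKM untreated, 3.37 and 2.57 on B12 alone, and 11.48 and 7.04 with propionate. nhr-68 libraries gave 13.35 and 15.44, 3.4 and 4.51, and 20.26 and 30.29 in the same order. The nhr-10 libraries lay between 1.12 and 1.82 FPKM in all 3 treatments, again below every other library. The untreated nhr-10 difference from wild type was -1.14 ± 0.244 (SE, log2; limma adjusted p = 0.0406). The threshold was missed after removal of any 1 of the 4 libraries (adjusted p between 0.101 and 0.245), without the low-value filter (0.0686) and with only these groups fitted (0.0939). The nhr-68 difference was 1.55 ± 0.244 (limma adjusted p = 0.00552).

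folt-2 (WBGene00018138, V, 2872465 to 2875600, minus strand) is named as a transporter of folate, the carrier of one-carbon units that methionine synthase uses together with B12. Whether its product carries folate was not examined here. Wild type libraries read 272.03 and 316.33 FPKM untreated, 81.73 and 99.09 on B12 alone, and 355.36 and 298.51 with propionate. nhr-68 libraries read 134.68 and 124.65 untreated, 9.55 and 12.04 on B12 alone, and 58.37 and 91.36 with propionate. nhr-10 libraries read 16.8 and 19.1 untreated, 4.99 and 5.91 on B12 alone, and 6.06 and 5.72 with propionate. Among the 9 genes its untreated difference in nhr-10 mutants had the smallest adjusted p, with log2 -3.96 ± 0.2 (SE; limma adjusted p = 1.15e-06) and no loss of the call in any of 9 alternative fits. In each treatment the order was wild type, nhr-68 and nhr-10, without overlap. B12 stood with lower folt-2 in each genotype: the B12 mean was 30.7% of the untreated mean in wild type, 30.4% in nhr-10 mutants and 8.33% in nhr-68 mutants. With propionate it was at 111% of the untreated mean in wild type, 57.7% in nhr-68 mutants and 32.8% in nhr-10 mutants.

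folt-2 and ugt-53 lie on chromosome V with 20436 bp between them, on opposite strands. The 4 measured genes between them, srj-57, srh-270, srh-272 and srh-240, which carry names of chemoreceptor families, did not exceed 0.15 FPKM in any library. The gene 133 bp from folt-2 on its other side, F37B4.10, gave a log2 difference of 0.24 ± 0.255 (SE) in untreated nhr-10 mutants and -0.04 ± 0.255 with propionate in wild type, and passed neither test (limma adjusted p = 0.639 and 0.948).

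hrg-10 (WBGene00013587, V, 18953118 to 18957317, minus strand) is a relative of hrg-9, which in C. elegans helps move haem out of storage compartments. Wild type libraries gave 6.75 and 7.07 FPKM untreated, 3.47 and 2.66 on B12 alone, and 6.72 and 7.62 with propionate. nhr-68 libraries gave 7.37 and 6.95, 2.66 and 2.47, and 7.35 and 8.92. nhr-10 libraries gave 5.23 and 5.45, 4.36 and 3.9, and 3.55 and 4.74. On B12 alone the nhr-10 libraries were therefore the highest of the 3 genotypes, unlike those of the other 8 genes. Untreated, nhr-10 mutants differed from wild type by -0.32 on the log2 scale (95% interval -0.69 to 0.05) and did not pass (limma adjusted p = 0.328). hrg-9 lay between 2.27 and 5.06 FPKM in all 18 libraries and passed no limma test with propionate or between untreated genotypes (adjusted p 0.276 or more).

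vwa-8 (WBGene00008694, X, 12991470 to 12999642, plus strand) encodes a protein with a von Willebrand factor A domain whose mouse counterpart is a mitochondrial ATPase. Wild type libraries read 48.56 and 36.17 FPKM untreated, 35.39 and 28.37 on B12 alone, and 66.96 and 53.65 with propionate. nhr-68 libraries read 52.69 and 48.88, 19.9 and 20.58, and 51.77 and 55.42. nhr-10 libraries read 24.99 and 26.69, 16.19 and 14.88, and 20.31 and 18.62. With propionate the nhr-10 libraries of vwa-8 did stand above those on B12, without overlap, by 1.25-fold, against 1.89-fold in wild type and 2.65-fold in nhr-68 mutants. Untreated, nhr-10 mutants differed from wild type by -0.68 on the log2 scale (95% interval -1.03 to -0.32; limma adjusted p = 0.0676) and passed after median-ratio scaling, as given above.

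C09B8.4 (WBGene00015623, X, 6018442 to 6019936, minus strand) is a protein-coding gene with a single annotated transcript of 912 bases in 6 exons. Wild type libraries gave 3.68 and 4.46 FPKM untreated, 0.73 and 1.11 on B12 alone, and 27.53 and 27.83 with propionate. nhr-68 libraries gave 77.21 and 81.01 untreated, 0.08 and 0.91 on B12 alone, and 61.22 and 96.79 with propionate. In nhr-10 mutants 5 of the 6 libraries listed it at 0, and untreated replicate 2 at 0.26, where 1 fragment is worth about 0.0853 FPKM. The untreated log2 difference was -2.17 ± 0.265 (SE) in nhr-10 mutants and 3.99 ± 0.265 in nhr-68 mutants (limma adjusted p = 0.00135 and 1.05e-05), and both calls held in all 9 alternative fits of each comparison. With a pseudocount of 0.1 in place of 1 the nhr-10 difference was -4.45, since the scale understates changes of genes near 0. Untreated nhr-68 mutants and nhr-68 mutants on propionate had almost the same mean, 79.11 ± 2.69 and 79 ± 25.2 FPKM (SD, n = 2).

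C23H5.8 (WBGene00016027, IV, 2111890 to 2113412, minus strand) is protein-coding with 5 annotated transcripts. Wild type libraries read 199.8 and 161.58 FPKM untreated, 80.34 and 99.79 on B12 alone, and 289.11 and 297.32 with propionate. nhr-68 libraries read 54.65 and 61.77, 28.32 and 32.63, and 61.66 and 71.94. nhr-10 libraries read 25.08 and 35.29, 25.23 and 24.67, and 26.55 and 38.89. Like folt-2 it was lower than in wild type in both mutants without supplement, by log2 -2.55 ± 0.204 (SE) in nhr-10 mutants and -1.61 ± 0.204 in nhr-68 mutants (limma adjusted p = 6.92e-05 and 0.00188), and both calls held in all 9 alternative fits. Every nhr-68 library lay below every wild type library of C23H5.8, in whichever treatment. With propionate the nhr-68 mean was 2.19-fold that on B12, but reached 22.8% of the wild type mean. The nhr-10 libraries of C23H5.8 with propionate also stood above those on B12 without overlap, by 1.31-fold, against 3.26-fold in wild type.

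ZK6.6 (WBGene00022641, V, 388697 to 391600, plus strand) is protein-coding with 1 annotated transcript and was the gene of the 9 with the lowest wild type level. Wild type libraries gave 1.7 and 1.99 FPKM untreated, 0.61 and 1.13 on B12 alone, and 2.79 and 3.03 with propionate. nhr-68 libraries gave 2.75 and 2.21, 0.56 and 0.74, and 2.22 and 2.53. nhr-10 libraries gave 1.34 and 1.13 untreated, 0.15 and 0.15 on B12 alone, and 0.39 and 0.45 with propionate. As a ratio, the nhr-10 mean with propionate was 2.8-fold that on B12, beside 3.34-fold in wild type and 3.65-fold in nhr-68 mutants, although 1 fragment is worth about 0.0498 FPKM and the nhr-10 B12 value rests on about 3 fragments. For ZK6.6 the absence of a response in nhr-10 mutants thus depends on the log2(FPKM + 1) scale, where the difference was 0.3 against 1.05 with a pseudocount of 0.1. Its untreated difference in nhr-10 mutants was -0.35 (95% interval -0.74 to 0.04; limma adjusted p = 0.318).

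The propionate responses by which the genes were picked differ in size. On the log2(FPKM + 1) scale they ran from 0.9 (vwa-8) to 4.95 (acdh-2) in wild type, from 1.03 (ZK6.6) to 6.03 (acdh-2) in nhr-68 mutants and from -0.24 (dhs-25) to 0.35 (C23H5.8) in nhr-10 mutants. The medians were 1.34, 2.08 and 0.1, beside medians over all genes of 0.082, 0.053 and 0.045. acdh-2, C09B8.4, folt-2, dhs-25, ugt-53, vwa-8 and hrg-10 had a larger difference in nhr-68 mutants than in wild type, and C23H5.8 a smaller one (1.11 against 1.7). ZK6.6 was nearly equal, at 1.03 against 1.08 (SE 0.179 each). As a ratio of FPKM it stood higher in nhr-68 mutants, 3.65-fold against 3.34-fold. Without wild type replicate 2 on propionate the wild type median was 1.66. Moulting sums in nhr-10 mutants were 1196.8 to 1818.7 FPKM with propionate against 303.1 to 542.5 on B12. Vitellogenin sums there were 103.8 to 1213.2 against 3305 to 8129.8. The same sums in nhr-68 mutants were 549.8 to 728.7 against 357.9 to 473.2, and 3853 to 4656.7 against 7512.5 to 9652.8. Wild type gave 307 to 771.4 against 726.8 to 849.6, and 904.7 to 3518.5 against 628.6 to 819.4. The part of these differences in the results was not tested.

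B12 alone stood with lower mean levels of all 9 genes in wild type and in nhr-68 mutants. The B12 libraries also served to pick the genes, so no test is given. The log2 differences ran from -3.53 to -0.39 in wild type, with a median of -0.97, and from -6.2 to -0.91 in nhr-68 mutants, with a median of -1.64. Over all genes the medians were -0.077 and -0.06. In nhr-10 mutants the median was -0.25, beside -0.117 over all genes. The lowest values there were those of folt-2 (-1.56, against -1.69 in wild type), ZK6.6 (-0.96 against -0.62) and vwa-8 (-0.7 against -0.39). hrg-10 (-0.31 against -0.97) and C23H5.8 (-0.25 against -1) differed less than in wild type. dhs-25 (0.1) and ugt-53 (0.22) were not lower on B12 in nhr-10 mutants, and acdh-2 and C09B8.4 were near 0 FPKM there. With propionate on top of B12, wild type means were above the untreated ones for C09B8.4 (6.8-fold), acdh-2 (2.74-fold), ugt-53 (2.17-fold) and C23H5.8 (1.62-fold). The same held for ZK6.6 (1.58-fold), dhs-25 (1.56-fold) and vwa-8 (1.42-fold). folt-2 (1.11-fold) and hrg-10 (1.04-fold) had overlapping libraries. The median log2 difference was 0.63 for the 9 genes and 0.007 over all genes.

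**Figure D4:**
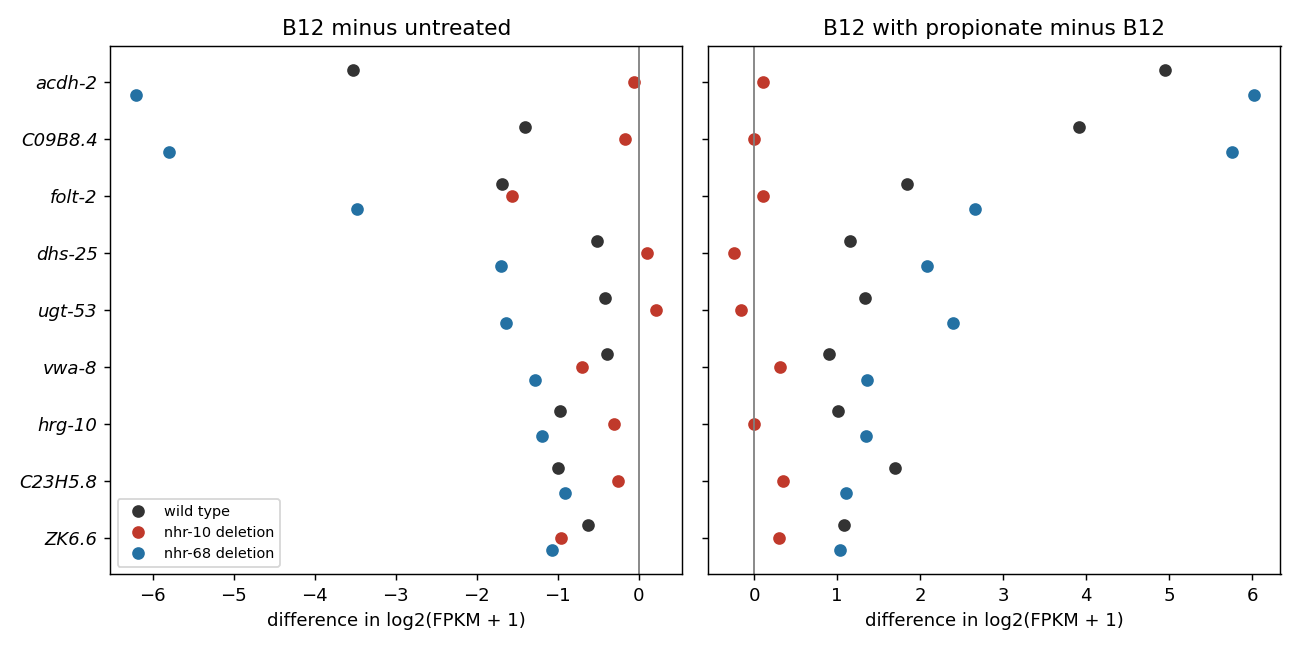
Difference in log2(FPKM + 1) for the 9 genes, B12 minus untreated (left) and B12 with propionate minus B12 (right), in the 3 genotypes. In the right panel the nhr-10 points lie between -0.24 and 0.35 and those of the other genotypes at 0.9 or above, which is the pattern used to pick the genes.

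The genes lie on 4 chromosomes, 4 of them on V, 3 on X and 1 each on II and IV. Among the 11 neighbouring genes that could be tested, 1 was called lower in untreated nhr-10 mutants, beside 0.295% of all genes. None was called with propionate in wild type by limma, where 3 were higher at an unadjusted p under 0.05. lipl-5, a lysosomal lipase gene, lies 956 bp from ZK6.6 on the same strand and had a median of 313.285 FPKM. It differed by 0.43 ± 0.14 (SE, log2) in untreated nhr-10 mutants and by -0.05 ± 0.14 with propionate in wild type (limma adjusted p = 0.156 and 0.893). With propionate in nhr-10 mutants it was the 1 neighbour called higher (log2 0.69), where 4.55% of all genes were. That call was lost with only the compared groups fitted (limma adjusted p = 0.156). It was also lost without nhr-10 B12 replicate 1 or nhr-10 propionate replicate 2. The log2 difference ran from 0.61 to 0.78 over 9 alternative fits. The neighbour called lower was D1005.10, 346 bp from dhs-25 on the opposite strand. It read 1.07 and 1.06 FPKM in untreated wild type, where dhs-25 read 90.45 and 93.09, and 2.62 and 1.34 in untreated nhr-68 mutants. With propionate in wild type it read 0.36 and 0.35, below its untreated level, unlike dhs-25. In untreated nhr-10 mutants it was listed at 0 in both libraries. Its difference was called lower there (log2 -1.05 ± 0.231, limma adjusted p = 0.046), a call lost on removing any 1 library (adjusted p between 0.128 and 0.234).

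All 5 shunt enzyme genes (alh-8, hphd-1, hach-1, ech-6 and acdh-1) were called lower in untreated nhr-10 mutants, beside 0.295% of all genes. Their median log2 difference was -2.15. The semialdehyde-forming dehydrogenase gene hphd-1 stood at 18% of wild type and the hydrolase gene hach-1 at 21.9% (limma adjusted p = 0.000299 and 0.000407). In untreated nhr-68 mutants 4 of the 5 were lower, beside 3.58% of all genes, with a median of -1.64 over the 5. Of these hach-1 (adjusted p = 0.041 in limma) missed the threshold without wild type replicate 1 (0.277), nhr-68 replicate 1 (0.105) or nhr-68 replicate 2 (0.258). With propionate all 5 rose in wild type, where 0.27% of all genes were called higher, and none was called in nhr-68 mutants (0.289% of all genes) or in nhr-10 mutants (4.55%) by limma. At an unadjusted p under 0.05 all 5 were higher in nhr-68 mutants, with a median log2 difference of 0.91, and 1 of the 5 in nhr-10 mutants, with a median of 0.17. With only the compared groups fitted, the wild type calls of ech-6, acdh-1, hphd-1 and alh-8 were lost (limma adjusted p = 0.0678, 0.0912, 0.0912 and 0.325). The wild type background of 42 higher calls ran from 17 without wild type B12 replicate 2 and 20 without wild type propionate replicate 2 to 121 without B12 replicate 1 and 238 without propionate replicate 1, and among the shunt genes alh-8 missed the threshold without propionate replicate 2 (limma adjusted p = 0.0592). Of the 7 genes of canonical propionate breakdown none was called by limma in untreated mutants against wild type, where none reached an unadjusted p under 0.05 either. With propionate in wild type none was called and 3 reached that unadjusted p. Of these, pccb-1 and pcca-1, the carboxylase subunits, were lower (log2 -0.61 and -0.55) and mmaa-1 was higher (0.63). In nhr-10 mutants pccb-1 and pcca-1 were called higher with propionate (log2 0.83 and 0.65). Those 2 calls ended without nhr-10 B12 replicate 1 and without nhr-10 propionate replicate 2, with limma adjusted p-values of 0.147 to 0.295.

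Of the 12 other acyl-CoA dehydrogenase genes tested, acdh-1 was the 1 called in untreated nhr-10 mutants, where it was lower, and the 1 that rose with propionate in wild type. In untreated nhr-68 mutants 4 of the 12 were lower and 1 was higher, beside 3.58% and 2.44% of all genes. With propionate 2 rose in nhr-10 mutants, where 4.55% of all genes did, and 1 in nhr-68 mutants, where 0.289% did. The latter was acdh-9, which rose from 49.88 ± 0.382 to 99.59 ± 16.5 FPKM (SD, n = 2; limma adjusted p = 0.00401, but 0.0535 without B12 replicate 1 and 0.0895 without propionate replicate 2). Of 28 other short-chain dehydrogenase genes, dhs-8 was higher in untreated nhr-10 mutants (log2 1.64 ± 0.283, limma adjusted p = 0.0135), a call lost without any 1 of the 4 libraries (0.0526 to 0.163). With propionate in nhr-10 mutants 4 of the 28 rose and 1 fell, beside 4.55% and 2.68% of all genes. Among them dhs-8 rose by log2 1.92 ± 0.283 and dhs-21 fell by 1.84 ± 0.327 (limma adjusted p = 0.00371 and 0.00986), both lost without propionate replicate 2 (0.059 and 0.134). dhs-14 rose with propionate in nhr-68 mutants, from 12.99 ± 0.226 to 49.86 ± 8.57 FPKM, and held in every alternative fit (adjusted p = 0.000582 in limma). dhs-18 rose in wild type (log2 0.92 ± 0.176, adjusted p = 0.0447), which ended without B12 replicate 2 (0.379) and without either propionate library (0.0591 and 0.254).

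Of 57 other UDP-glucuronosyltransferase genes none was lower in untreated nhr-10 mutants by limma, adjusted or at an unadjusted p under 0.05, and ugt-32, ugt-13 and ugt-18 were higher, beside 1.1% of all genes. At the unadjusted p 20 of the 57 were higher. In untreated nhr-68 mutants 5 were called higher and 1 lower, beside 2.44% and 3.58% of all genes. ugt-13 (log2 1.76, limma adjusted p = 0.0305) and ugt-18 (1.32, 0.00315) were among the higher ones. Without nhr-68 replicate 2 those were lost (0.332 and 0.0611), and ugt-13 also without wild type replicate 1 (0.18) or 2 (0.0773). ugt-32 read 6.495 ± 0.969 FPKM against 0.795 ± 0.375 in wild type (SD, n = 2; limma adjusted p = 0.00651), which became 0.0647 without wild type replicate 1 and 0.0774 without nhr-10 replicate 1. ugt-13 read 16.82 ± 5.29 against 2.055 ± 0.785 (adjusted p = 0.00907), which became 0.078 without wild type replicate 1 and 0.134 without nhr-10 replicate 2. ugt-18, at 1.225 ± 0.12 against 0.205 ± 0.163, lost its call without any 1 of the 4 libraries (0.0877 to 0.22). ugt-29 rose with propionate in nhr-68 mutants (log2 0.96 ± 0.153, adjusted p = 0.0152) and in nhr-10 mutants (0.8 ± 0.153, adjusted p = 0.0144). The nhr-68 call was lost without B12 replicate 1 (0.209) and without propionate replicate 2 (0.263). The nhr-10 call was lost without B12 replicate 1 (0.11) and without propionate replicate 2 (0.108).

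None of the 8 other haem-responsive genes was called by limma in the untreated comparisons or with propionate, with 1 at an unadjusted p under 0.05 between the mutants and 2 with propionate in wild type. Of 12 tested genes of folate and one-carbon metabolism none was called by limma in the untreated comparisons or with propionate in wild type and nhr-68 mutants. At an unadjusted p under 0.05, 10 of the 12 were higher in untreated nhr-10 than in nhr-68 mutants, 5 were lower in nhr-68 mutants than in wild type, and 4 differed between nhr-10 mutants and wild type. Of the 12, 1 fell with propionate in nhr-10 mutants, where 2.68% of all genes were called lower. The folate transporter gene folt-1 read 3.89 ± 0.226 FPKM in untreated nhr-10 mutants and 5.085 ± 0.0212 in wild type (SD, n = 2; limma adjusted p = 0.405).

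Across the 18 libraries the genes differed in how closely they followed one another. Pearson's r between a gene and the mean standardised profile of the other 8 was 0.96 for vwa-8, 0.953 for acdh-2, 0.929 for C09B8.4, 0.927 for ZK6.6, 0.918 for dhs-25, 0.853 for ugt-53, 0.844 for folt-2, 0.759 for hrg-10 and 0.686 for C23H5.8. These values describe genes that were picked for a shared pattern in libraries of common groups. The 5 other genes with the highest r to the mean profile of all 9 were dhs-14 (0.942), aagr-2, named as an acid alpha-glucosidase relative (0.935), Y47G6A.22 (0.905), C05C10.3 (0.904) and C17C3.1 (0.894). C05C10.3 had group means of 108.5, 100.5 and 196.1 FPKM in wild type untreated, on B12 and with propionate, of 50.36, 51.8 and 56.83 in nhr-10 mutants, and of 246.7, 99.6 and 299.5 in nhr-68 mutants. dhs-14 ran in the same order at 27.39, 24.6 and 41.62, at 15.57, 15.2 and 17.06, and at 38.22, 12.99 and 49.86. These 5 were chosen by their likeness, which is a description.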

How the data were processed

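Each library had its own column of FPKM values in the table deposited by the authors. HISAT, Bowtie2, RSEM and the WBcel235 build are named, per the submitters' processing notes; for versions, settings, filters and strand use, the sources used here give nothing. RSEM divides reads that map to several genes, so values of paralogues and overlapping genes are uncertain, and FPKM shifts when abundant genes change. Columns were matched to samples by name. Names and positions come from the Ensembl release 115 annotation of WBcel235. No sequence was used here, so promoters and proteins were not analysed.

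Genes that reached 1 FPKM in 2 or more libraries were transformed to log2(FPKM + 1) and fitted with limma 3.58.1 in R 4.3.3, with 1 mean per group, all 9 groups in the fit and an intensity trend (9 residual and 3.6 prior degrees of freedom). P-values were adjusted by Benjamini-Hochberg over all 15575 genes, with a threshold of 0.05. Library depth came from the smallest FPKM steps among genes with a single transcript, 30 bases taken off each length; between 45.6% and 50.8% of low values then lay within 0.15 of a whole fragment, so the estimate is rough and no counts were used.

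The 9 genes and all lists were chosen with earlier results of these data known. Named are the 9 genes, the deleted genes, from each list up to 3 genes with the smallest p in untreated nhr-10 mutants or with propionate in wild type, nearest neighbours, the 5 most similar profiles, and acdh-1 and hrg-9. Which neighbours are described at length (D1005.10, lipl-5, F37B4.10), ins-13 among them, was settled after their values were seen, as was the naming of mtl-1.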

Additional observations from a re-analysis of the deposited data

Results flagged for a closer look

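For 5 of the 9 genes both untreated nhr-10 libraries lay below and both nhr-68 libraries above those of wild type, and the mutants differed from each other in the direct test (limma, Benjamini-Hochberg adjusted p between 7.88e-08 and 0.0219). ZK6.6 libraries lay in the same order, but it missed that test (log2 -0.64, limma adjusted p = 0.136). Of all genes 16.1% lay lower in nhr-10 mutants than in wild type without overlap, and 24.3% higher in nhr-68 mutants. The share with both was not counted. The log2 difference, nhr-10 minus nhr-68, was -7.25 for acdh-2, -6.16 for C09B8.4, -2.69 for ugt-53, -2.67 for dhs-25 and -0.95 for vwa-8. Both mutant comparisons share the wild type libraries, and without nhr-68 replicate 2 acdh-2, dhs-25 and ugt-53 were no longer called against wild type (limma adjusted p = 0.0611, 0.076 and 0.0885). vwa-8 passed in neither comparison with wild type (limma adjusted p = 0.0676 in nhr-10 and 0.351 in nhr-68 mutants). Its nhr-68 libraries read 52.69 and 48.88 FPKM against 48.56 and 36.17 in wild type, and its call between the mutants was lost on removing any 1 of the 4 mutant libraries (limma adjusted p up to 0.147).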

How the results depend on the processing

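Of 702 values of single tested genes under alternative settings, 561 kept their direction and their side of the threshold, 137 lost a call, 4 gained one and 0 reversed. Genes outside the 9 entered only where the main fit called them, so they could lose a call but not gain one. Counts over all genes moved more, and the cause was not tested. Median-ratio scaling gave 88 lower genes in nhr-10 mutants against wild type, 64 lower and 27 higher in nhr-10 against nhr-68 mutants, and 50 lower with propionate in wild type. Fitting only the compared groups, with fewer residual degrees of freedom, gave 29 lower (nhr-10 against wild type), 37 lower and 128 higher (nhr-68 against wild type), 23 lower and 19 higher (nhr-10 against nhr-68), 0 lower and 2 higher (propionate in wild type) and 0 in each direction (propionate in nhr-10). At an unadjusted p under 0.05 limma gave 526 lower in that wild type fit, and 983 lower and 1646 higher in that nhr-10 fit, in which 6 of the 9 genes passed the low-value filter, so no median was taken. A pseudocount of 0.1 gave 90 higher with propionate in wild type and a median of 1.69 for the 9 genes.

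Replicate numbers were not treated as pairs: the deviations of same-numbered libraries correlated at -0.077 to 0.251, above 0.1 in the untreated comparisons with nhr-68 mutants (0.251 and 0.16) and with propionate in nhr-68 mutants (0.239), and with 2 libraries a group this is a hint, not a design. With the replicate number as a block, 83 genes were higher in nhr-10 against nhr-68 mutants, and with propionate in wild type 45 were lower and 64 higher. vwa-8 (nhr-10 against wild type, adjusted p = 0.043) and C23H5.8 (nhr-10 against nhr-68, 0.036, limma) gained a call under the block.

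On leaving out each library in turn, nhr-10 against wild type gave 18 to 24 lower and 36 to 63 higher, nhr-68 against wild type 14 to 305 and 19 to 229, and nhr-10 against nhr-68 17 to 24 and 10 to 29. Of the 9 genes, 1 to 2 were then lower and 1 to 4 higher in nhr-68 mutants. With propionate the ranges were 7 to 48 lower and 17 to 238 higher in wild type, 29 to 360 and 36 to 711 in nhr-10 mutants, and 2 to 8 and 8 to 24 in nhr-68 mutants. The wild type median of the 9 genes ran from 1.27 to 1.66. With 2 libraries a group, the lone library left in a group is assumed to vary like the others. Levels under about 1 FPKM rest on few fragments.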
